A study of Mus musculus with 6 samples.

Results

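The Fc receptors are the 9 genes Fcgr1, Fcgr2b, Fcgr3, Fcgr4, Fcer1g, Fcer1a, Ms4a2, Fcer2a and Fcgrt, which encode the receptors for IgG and IgE antibodies, their shared chains and the neonatal receptor FcRn. They were picked by gene symbol from the 57462 genes listed for each tumour, and all 9 were found, each under a single Ensembl gene ID. RNA sequencing values were available for tumours of HM1, a mouse ovarian cancer cell line, taken from an early tumour model. In 3 tumours (shST3GAL3) the line carried a short hairpin RNA that knocks down the sialyltransferase ST3GAL3, and in 3 tumours (shControl) it carried a control hairpin and is labelled wild type. The labels give no strain, sex or age of the host mice, do not say whether the hairpin lines are single clones, and do not say whether each sample came from its own mouse, so the spread behind each p-value is that between samples and could be technical. Levels are in TPM, which scale each gene by its length and each library to the same total and hide the number of reads. The depth behind each value is therefore unknown, and precision rests on the 3 samples per group.

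Fc receptors bind the constant end of antibodies and pass that signal into the cell. In the mouse, Fcgr1, Fcgr3 and Fcgr4 encode activating IgG receptors of myeloid cells, which need the shared gamma chain encoded by Fcer1g; that chain carries an activation motif which recruits the kinase Syk. Fcgr2b encodes the inhibitory IgG receptor of myeloid and B cells, which recruits the phosphatase encoded by Inpp5d. Fcer1a and Ms4a2 encode the alpha and beta chains of the high-affinity IgE receptor of mast cells and basophils, Fcer2a encodes the low-affinity IgE receptor CD23, best known from B cells, and Fcgrt encodes the heavy chain of FcRn, which pairs with the product of B2m and recycles IgG and albumin.

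The libraries listed between 13930 and 14762 genes at 1 TPM or more. St3gal3, the targeted gene, stood at 8.44, 6.77 and 7.49 TPM in shST3GAL3 1, 2 and 3, against 14.03, 13.84 and 13.79 TPM in shControl 1, 2 and 3. Of the tumour cell markers, the keratin genes Krt8 (728.22 to 1295.2 TPM) and Krt18 (641.34 to 1303.81 TPM) were abundant in all libraries and lowest in shST3GAL3 1. Epcam (0.07 to 1.17 TPM) and Krt7 (0.38 to 0.85 TPM) were near 0. Krt19 stood at 384.42, 714.74 and 826.78 TPM in shST3GAL3 1, 2 and 3, below its 939.78, 1070.25 and 884.94 TPM in shControl 1, 2 and 3. Of the 4 markers abundant enough to test, 3 had a negative log2 fold change and 1, Cdh1, a positive one. The library shST3GAL3 1 stood apart: its 6 fibroblast markers summed to 4648.4 TPM, against 929.1 and 1310 TPM in the other shST3GAL3 tumours and 488.5 to 770.6 TPM in the shControl tumours. In whole tumours, fewer cells of a type and less RNA per cell cannot be told apart. Values without this library are given beside several of the results below.

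The RefSeq promoters of the 4 Fc gamma receptor genes are shown first, because these genes carry the comparison of activating and inhibitory receptors. Each window runs from 250 bases before to 50 bases after the gene's start, in the build GRCm38.p6, and all 9 genes had at least 1 window. Capitals mark matches to the letters TTCNNNGAA, the core of sites bound by STAT factors, and to the letters GAGGAA or their reverse complement TTCCTC, a core bound by the myeloid factor PU.1, searched on both strands; no match of the first overlapped one of the second.
Fcgr1, chr3:96293920-96294219, minus strand: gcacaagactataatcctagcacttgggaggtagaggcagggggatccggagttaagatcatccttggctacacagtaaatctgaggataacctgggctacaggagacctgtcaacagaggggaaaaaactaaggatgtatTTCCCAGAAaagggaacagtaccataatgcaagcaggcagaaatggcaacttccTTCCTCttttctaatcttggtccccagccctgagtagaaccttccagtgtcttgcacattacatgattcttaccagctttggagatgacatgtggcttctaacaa
Fcgr3, chr1:171059354-171059653, minus strand: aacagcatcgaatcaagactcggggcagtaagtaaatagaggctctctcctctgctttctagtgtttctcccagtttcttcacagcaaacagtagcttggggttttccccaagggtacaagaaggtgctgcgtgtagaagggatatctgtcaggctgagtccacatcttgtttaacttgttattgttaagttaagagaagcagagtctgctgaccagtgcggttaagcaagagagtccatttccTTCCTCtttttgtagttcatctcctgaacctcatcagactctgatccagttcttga
Fcgr4, chr1:171018676-171018975, plus strand: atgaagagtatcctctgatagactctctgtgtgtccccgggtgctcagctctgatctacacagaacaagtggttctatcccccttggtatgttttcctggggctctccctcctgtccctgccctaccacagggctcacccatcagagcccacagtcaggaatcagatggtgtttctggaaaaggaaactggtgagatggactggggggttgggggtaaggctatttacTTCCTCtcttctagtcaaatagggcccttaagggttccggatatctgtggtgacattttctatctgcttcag
Fcgr2b, chr1:170976022-170976321, minus strand: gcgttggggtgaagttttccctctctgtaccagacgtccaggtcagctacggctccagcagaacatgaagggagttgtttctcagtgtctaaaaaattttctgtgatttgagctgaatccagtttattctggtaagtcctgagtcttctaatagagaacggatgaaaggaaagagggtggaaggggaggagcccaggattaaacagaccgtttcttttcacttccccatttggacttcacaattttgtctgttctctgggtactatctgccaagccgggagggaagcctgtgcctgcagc
Fcgr1 held 1 match to TTCNNNGAA, a pattern found in 8.3% of the 32851 promoter windows of this length, and none of the other 8 genes held it in its windows. Each of the 3 activating receptor genes held 1 match to the PU.1 core, which 28.3% of windows hold, and so did Fcer1a. The windows of Fcgr2b, Fcer1g, Ms4a2, Fcer2a and Fcgrt held neither set of letters. These matches describe the letters in these windows and are not binding sites measured here. For Fcgr3 the first of 2 listed starts is shown, and the second gave the same matches.

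The Fc receptor genes spanned a wide range of levels, and the IgG receptor genes were abundant while the IgE receptor genes were near 0. In the shControl tumours the order of mean TPM was Fcer1g (205 ± 14.7), Fcgr2b (183.6 ± 11.3), Fcgr3 (171 ± 23.1), Fcgrt (113.4 ± 6.62), Fcgr4 (51.3 ± 5.75) and Fcgr1 (23.2 ± 2.85), with SD over n = 3. Fcer1a followed at 0.723 ± 0.298 TPM, then Ms4a2 at 0.07 ± 0.0361 TPM, and Fcer2a was listed at 0 in all 3. The neighbours Fcgr2b and Fcgr3 did not differ beyond their spread, and their order changed between tumours. In shST3GAL3 1, Fcgr2b was the most abundant of the 9 genes, and in the other 5 tumours Fcer1g was. Fcgrt, Fcgr4 and Fcgr1 kept the same places in all 6 tumours.

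Of the 9 genes, 6 reached 1 TPM in 3 or more libraries and were tested with limma across 14207 genes; Fcer1a, Ms4a2 and Fcer2a did not and have no test. The 6 tested genes reached that level in both groups. All 6 had a positive log2 fold change of shST3GAL3 over shControl, with a median of 0.52, against a median of 0.013 over all genes tested, of which 52.7% were positive. None of the 6 passed the threshold of 0.05 on the adjusted p (limma, Benjamini-Hochberg), nor did any gene in the series rise (0% of the genes tested), while 1 gene, or 0.00704%, fell. The gene that fell was not St3gal3. At an unadjusted limma p under 0.05 were 4 of the 6, Fcgr4, Fcgr1, Fcer1g and Fcgr3, where 9.19% of all tested genes were higher at that level. The 3 shST3GAL3 tumours were all above the 3 shControl tumours for 3 of the 6, Fcgr1, Fcgr4 and Fcer1g, and for 15.7% of all genes tested. They were all below for 0 of the 6 and for 7.76% of all genes tested. Without shST3GAL3 1, 5 of the 6 were positive and 1, Fcgrt, was negative, with a median of 0.31 against 0.040 over 13965 genes, and 3 of the 6 lay above the shControl range, as did 21.1% of those genes. A tested gene above the range stays above it when a shST3GAL3 tumour is left out, so the count above is no check. With 3 samples against 3, an exact two-sided permutation test cannot give a p below 0.1, so none was used for single genes.

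**Figure D1:**
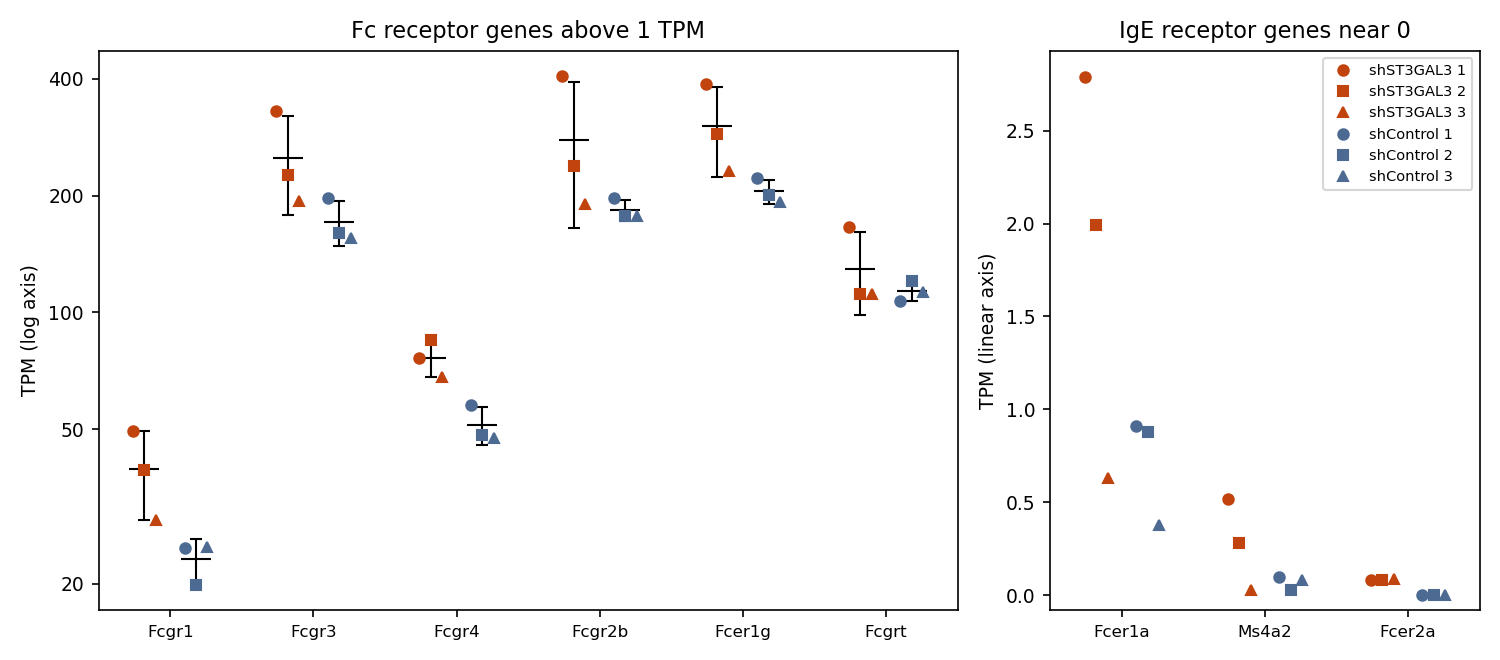
Level in TPM of the 9 Fc receptor genes in each tumour, shST3GAL3 left of shControl for each gene, with a log axis on the left panel and a linear axis on the right. Symbols give the replicate, and black bars the mean and SD over n = 3 on the left. Fcgr1, Fcgr4 and Fcer1g show no overlap between groups, while Fcgr3, Fcgr2b and Fcgrt overlap.

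Among the activating receptors, Fcgr4, which encodes a receptor for IgG2 antibodies in the mouse, stood at 76.5, 85.01 and 68.02 TPM in shST3GAL3 1, 2 and 3, against 57.88, 48.42 and 47.5 TPM in shControl 1, 2 and 3. The lowest shST3GAL3 tumour was thus above the highest shControl tumour, and shST3GAL3 2 was the highest of all. Fcgr4 averaged 76.5 ± 8.50 TPM in shST3GAL3 and 51.3 ± 5.75 TPM in shControl tumours (SD, n = 3 each), a log2 fold change of 0.57 (SE 0.12, limma adjusted p = 0.38). Fcgr4 had the smallest unadjusted limma p of the 6 tested genes, 0.0021, and leaving out any 1 library left its log2 fold change between 0.49 and 0.66.

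Fcgr1, which encodes the high-affinity IgG receptor of monocytes and macrophages, stood at 49.62, 39.39 and 29.22 TPM in shST3GAL3 1, 2 and 3, against 24.79, 19.89 and 24.86 TPM in shControl 1, 2 and 3. The groups did not overlap, and the gap between the closest tumours, shST3GAL3 3 and shControl 3, was small beside the spread within the shST3GAL3 group. Fcgr1 averaged 39.4 ± 10.2 TPM in shST3GAL3 and 23.2 ± 2.85 TPM in shControl tumours (SD, n = 3 each), and its log2 fold change of 0.72 (SE 0.20, limma adjusted p = 0.38) was the highest of the 6. The promoter window of Fcgr1 held the TTCNNNGAA match printed above, as 8.3% of all windows do. Any link between that match and the level of Fcgr1 was not tested.

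Fcgr3, which encodes the low-affinity activating receptor, stood at 329.25, 225.23 and 193.27 TPM in shST3GAL3 1, 2 and 3, against 197.56, 159.82 and 155.74 TPM in shControl 1, 2 and 3. The groups overlapped, since shControl 1 lay above shST3GAL3 3. Fcgr3 averaged 249.2 ± 71.1 TPM in shST3GAL3 and 171 ± 23.1 TPM in shControl tumours (SD, n = 3 each), with a log2 fold change of 0.51 (SE 0.20, limma adjusted p = 0.382). Without shST3GAL3 1 it was 0.29 (SE 0.12, limma adjusted p = 0.44).

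The inhibitory receptor gene Fcgr2b stood at 405.84, 238.42 and 189.73 TPM in shST3GAL3 1, 2 and 3, against 196.57, 177.53 and 176.66 TPM in shControl 1, 2 and 3. The tumour shST3GAL3 1 was far above the rest, and shST3GAL3 3 lay within the shControl range. Fcgr2b averaged 278.0 ± 113 TPM in shST3GAL3 and 183.6 ± 11.3 TPM in shControl tumours (SD, n = 3 each), with a log2 fold change of 0.52 (SE 0.26, limma adjusted p = 0.409, 95% interval -0.10 to 1.14). Without shST3GAL3 1 the log2 fold change was 0.21 (SE 0.11, limma adjusted p = 0.512). The longest protein-coding transcripts of Fcgr2b and Fcgr3 in GENCODE M21 were 96.5% identical over 509 aligned bases, so reads from that stretch could have been divided between the pair in the authors' estimation, and the level of each is uncertain to that extent. Fcgr4 was 64.7% identical to Fcgr2b and 64.4% identical to Fcgr3 over its best alignment. An antisense gene, Gm38204, overlaps Fcgr2b in GENCODE M21, and without a stated strand setting reads from both cannot be told apart.

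The balance of activating to inhibitory receptor transcripts did not separate the groups. The summed TPM of Fcgr1, Fcgr3 and Fcgr4 over that of Fcgr2b was 1.12, 1.47 and 1.53 in shST3GAL3 1, 2 and 3, against 1.43, 1.29 and 1.29 in shControl 1, 2 and 3. The lowest and the highest ratio were both found in shST3GAL3 tumours. The overlap came from shST3GAL3 1, since shST3GAL3 2 and 3 lay above all shControl tumours. The ratio averaged 1.37 ± 0.220 in shST3GAL3 and 1.33 ± 0.0794 in shControl tumours (SD, n = 3 each), a difference of 0.030 on the log2 scale beside a pooled SD of 0.18 between replicates. Without shST3GAL3 1 the difference was 0.17 on the log2 scale. No test was made of this ratio, since its genes were chosen with earlier results known.

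Taken receptor by receptor, the ratio to Fcgr2b differed in which tumours were high. Fcgr4 over Fcgr2b was 0.189, 0.357 and 0.359 in shST3GAL3 1, 2 and 3, against 0.294, 0.273 and 0.269 in shControl 1, 2 and 3. So shST3GAL3 2 and 3 lay above, and shST3GAL3 1 below, all the shControl tumours. Fcgr1 over Fcgr2b was 0.122, 0.165 and 0.154 in the same order of shST3GAL3 tumours, against 0.126, 0.112 and 0.141 in the shControl tumours, a log2 difference of 0.22 beside a pooled SD of 0.20. Fcgr3 over Fcgr2b averaged 0.925 ± 0.105 in shST3GAL3 and 0.929 ± 0.0666 in shControl tumours. Of the 4 receptor genes together, Fcgr2b made up 47.1%, 40.5% and 39.5% of the TPM in shST3GAL3 1, 2 and 3, against 41.2%, 43.8% and 43.7% in shControl 1, 2 and 3.

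**Figure D2:**
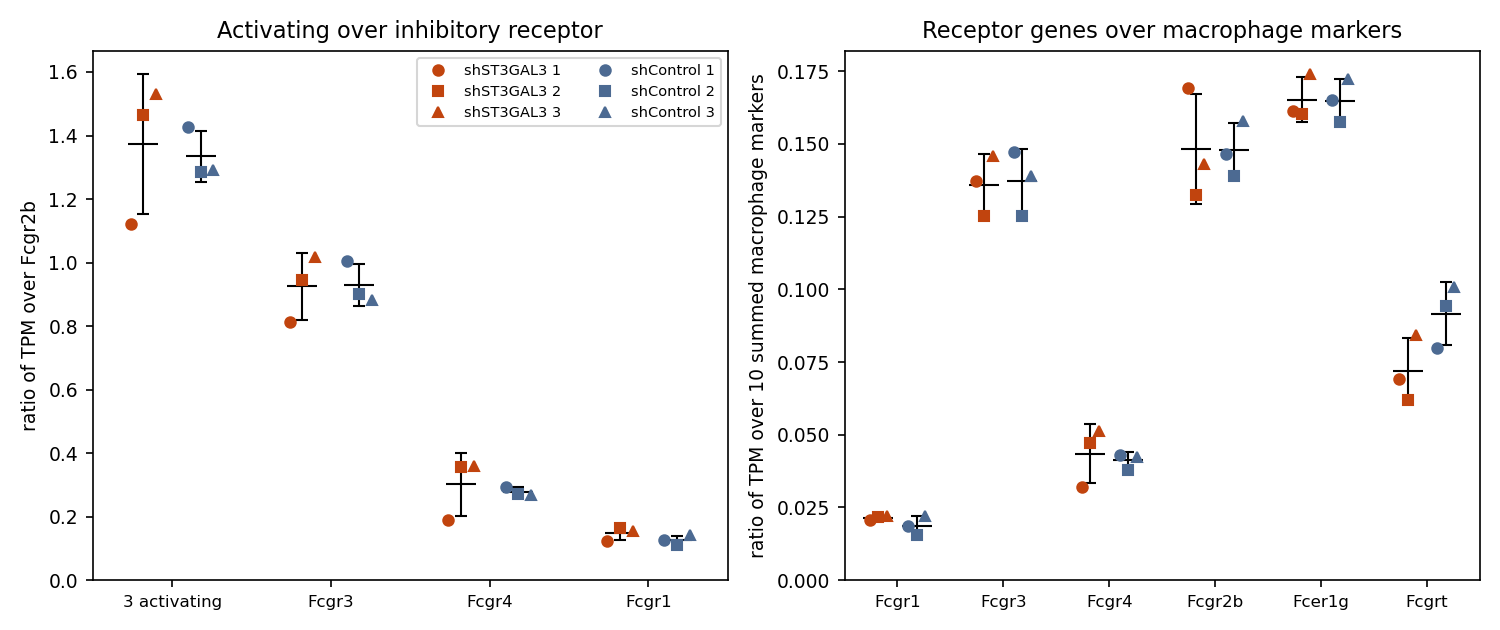
Left, ratio of TPM of the activating IgG receptor genes, summed and single, over Fcgr2b; right, ratio of TPM of 6 Fc receptor genes over the sum of 10 macrophage markers. Symbols give the tumour, black bars the mean and SD over n = 3, with shST3GAL3 left of shControl, and the groups overlap in every ratio shown.

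Fcer1g, the shared signalling chain, stood at 386.31, 288.59 and 231.01 TPM in shST3GAL3 1, 2 and 3, against 221.23, 200.96 and 192.76 TPM in shControl 1, 2 and 3. The groups did not overlap, with shST3GAL3 3 only just above shControl 1. Fcer1g averaged 302.0 ± 78.5 TPM in shST3GAL3 and 205 ± 14.7 TPM in shControl tumours (SD, n = 3 each), with a log2 fold change of 0.53 (SE 0.18, limma adjusted p = 0.38), and 0.33 (SE 0.11, limma adjusted p = 0.361) without shST3GAL3 1. Relative to the summed TPM of the 3 activating receptors that use it, Fcer1g was 0.848, 0.825 and 0.795 in shST3GAL3 1, 2 and 3, against 0.79, 0.881 and 0.845 in shControl 1, 2 and 3. The groups overlapped in that ratio. Tyrobp, which encodes a related adaptor chain of myeloid and NK cells, stood at 298.9 ± 101.0 TPM in shST3GAL3 and 185 ± 14.4 TPM in shControl tumours (SD, n = 3 each; log2 fold change 0.64, SE 0.23, limma adjusted p = 0.38).

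**Figure D3:**
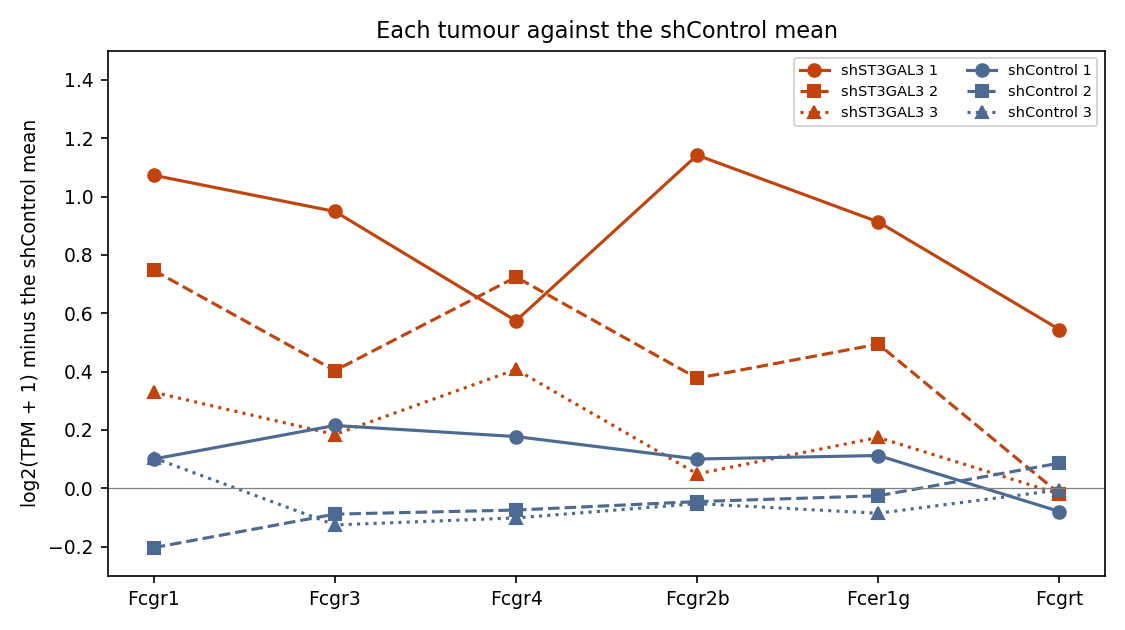
Value of each tumour on the log2(TPM + 1) scale minus the mean of the 3 shControl tumours, for the 6 tested Fc receptor genes; lines only link the values of 1 tumour. For Fcgr2b the value of shST3GAL3 1 is 1.14 and that of shST3GAL3 3 is 0.049, while for Fcgr4 shST3GAL3 2 is the highest, at 0.72.

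Fcgrt, the FcRn heavy chain gene, stood at 165.6, 111.74 and 111.7 TPM in shST3GAL3 1, 2 and 3, against 107.07, 120.27 and 112.82 TPM in shControl 1, 2 and 3. Only shST3GAL3 1 was outside the shControl range. The log2 fold change was 0.17 (SE 0.16, limma adjusted p = 0.633), and it was -0.020 (SE 0.07, limma adjusted p = 0.934) without shST3GAL3 1 and 0.26 without shST3GAL3 2 or 3, so no direction can be given. Its partner gene B2m, also the light chain of MHC class I, averaged 5883 ± 694 TPM in shST3GAL3 and 4859 ± 201 TPM in shControl tumours (SD, n = 3 each), with a log2 fold change of 0.27 (SE 0.10, limma adjusted p = 0.38) and no overlap. Fcgrt over B2m was 0.029, 0.0168 and 0.0211 in shST3GAL3 1, 2 and 3, against 0.0214, 0.026 and 0.0228 in shControl 1, 2 and 3, with overlap. An antisense gene, Gm45669, overlaps Fcgrt in GENCODE M21.

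The IgE receptor chains were near the bottom of the measured range. Fcer1a stood at 2.79, 1.99 and 0.63 TPM in shST3GAL3 1, 2 and 3, against 0.91, 0.88 and 0.38 TPM in shControl 1, 2 and 3, so that shST3GAL3 1 and 2 were the highest and shST3GAL3 3 lay within the shControl range. Ms4a2 stood at 0.52, 0.28 and 0.03 TPM in shST3GAL3 1, 2 and 3, against 0.1, 0.03 and 0.08 TPM in shControl 1, 2 and 3, in the same pattern. Fcer2a was listed at 0.08, 0.08 and 0.09 TPM in shST3GAL3 1, 2 and 3 and at 0 in all 3 shControl tumours, and no fold is given against a group at 0. The longest protein-coding transcript of Ms4a2 in GENCODE M21 was 84.3% identical to Ms4a4b over 995 aligned bases. That of Fcer2a matched stretches of other genes, among them Cast (92.8% identical over 153 bases). How far shared reads enter these low values is unknown.

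The sum of the mast cell and basophil markers was highest in shST3GAL3 1 and 2, as were Fcer1a and Ms4a2. Of 10 such markers 9 were tested, 8 with a positive and 1 with a negative log2 fold change (52.7% of all genes were positive). The sum over the 10 ranged from 99.1 to 169.4 TPM in shST3GAL3 and from 78.8 to 97.8 TPM in shControl tumours, and no marker was at 0 in all libraries. Mcpt8, the negative marker, was the largest part of that sum in all tumours but shST3GAL3 1. The mast cell protease genes Tpsb2 (log2 fold change 1.22, SE 0.33), Cma1 (1.19, SE 0.36) and Mcpt4 (1.26, SE 0.40) and the receptor gene Kit (0.79, SE 0.19) had the smallest p in the list. None passed over all genes (limma), with 5 at an unadjusted p under 0.05, all higher (9.19% of all genes were higher at that level). Tpsb2 stood at 37.8, 24.2 and 14.91 TPM in shST3GAL3 1, 2 and 3, the same order as Fcer1a within that group. In shST3GAL3 3, Tpsb2 was above all shControl tumours, while Fcer1a was within their range. Among the other tested markers, Cma1, Mcpt4, Gata2 and Hpgds also had that order, whereas Cpa3, Kit, Hdc and Mcpt8 did not. The part of mast cell content in the values of Fcer1a and Ms4a2 was not tested. Of the 7 B cell markers, the defining gene Ms4a1 did not exceed 0.32 TPM in any library, and the list summed to between 7.6 and 16.7 TPM in shST3GAL3 and between 5.2 and 7.6 TPM in shControl tumours.

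The macrophage marker sum was highest in shST3GAL3 1, as were Fcgr1, Fcgr2b, Fcgr3 and Fcer1g, whereas Fcgr4 was highest in shST3GAL3 2. All 10 were tested and had positive log2 fold changes, with a median of 0.52 and 0 passing over all genes in limma. Of the 10, 4 lay above the shControl range (15.7% of all genes did) and 4 were higher at an unadjusted p under 0.05 (9.19% of all genes). Without shST3GAL3 1, 9 of the 10 were positive, with a median of 0.31. Csf1r, the growth factor receptor gene of macrophages, stood at 107.0 ± 44.7 TPM in shST3GAL3 and 53 ± 11.9 TPM in shControl tumours, and Cd68, a lysosomal protein gene, at 162.9 ± 51.8 TPM in shST3GAL3 and 107.2 ± 7.97 TPM in shControl tumours (SD, n = 3 each). The sum of the 10 markers, in which the 3 C1q genes are the largest part, was 2397.2, 1800.81 and 1326.6 TPM in shST3GAL3 1, 2 and 3, against 1341.15, 1275.97 and 1119.37 TPM in shControl 1, 2 and 3; none of the 10 was at 0. Monocyte markers were positive for 6 of 6 (52.7% of all genes were), with 2 above the shControl range (15.7% of all genes were) and 4 overlapping. Their median log2 fold change was 0.66, and 0.27 without shST3GAL3 1. Their sum, of which Plac8 was the largest part, was 309.8 to 572.1 TPM in shST3GAL3 and 191 to 288.3 TPM in shControl tumours, without overlap. Neutrophil markers overlapped in their sum. Of 5 tested, 3 were positive and 2 negative, all with overlap, and the 8 summed to 60.4 to 334.3 TPM in shST3GAL3 and 85.8 to 129.5 TPM in shControl tumours. Without shST3GAL3 1 all 5 neutrophil markers were negative, with a median of -0.38.

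As ratios to that macrophage sum, the 6 tested receptor genes overlapped between groups, as Fcgr2b, Fcgr3 and Fcgrt also did in TPM. The ratio of Fcer1g to the sum was 0.161, 0.16 and 0.174 in shST3GAL3 1, 2 and 3, against 0.165, 0.158 and 0.172 in shControl 1, 2 and 3. For Fcgr4 it was 0.0319, 0.0472 and 0.0513 in shST3GAL3 1, 2 and 3, against 0.0432, 0.038 and 0.0424 in shControl 1, 2 and 3, with shST3GAL3 1 the lowest. For Fcgr1 it averaged 0.0215 ± 0.000726 in shST3GAL3 and 0.0188 ± 0.00332 in shControl tumours, a log2 difference of 0.21 beside a pooled SD of 0.18. The log2 difference in this ratio was -0.0019 for Fcgr2b (pooled SD 0.14), -0.012 for Fcgr3 (pooled SD 0.11) and 0.0025 for Fcer1g (pooled SD 0.066). Fcgrt lay lower, at 0.0718 ± 0.0113 in shST3GAL3 and 0.0916 ± 0.0107 in shControl tumours (SD, n = 3 each), with overlap. The ratios had no test, the sum holds genes of uneven abundance, and the part of macrophage content in the receptor values was not tested.

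Of the markers of endothelial cells, which can carry FcRn and Fcgr2b, 6 of 6 tested genes were above the shControl range (15.7% of all genes were), and the 7 markers summed to 79.6 to 200.6 TPM in shST3GAL3 and 41.7 to 56.4 TPM in shControl tumours. Their median log2 fold change was 1.02, and without shST3GAL3 1 it was 0.64, with 5 of 5 tested genes above the range, as were 21.1% of all genes. Leaving out a shST3GAL3 tumour cannot bring a tested gene back into overlap, so the count above is no check. Stab2, a marker of sinusoidal endothelium, where Fcgr2b is best known, did not exceed 0.23 TPM in any library. NK cell markers, of cells that use Fcgr3, summed to 35.4 to 52.9 TPM in shST3GAL3 and 22.1 to 30.1 TPM in shControl tumours. Of 5 tested, 4 were positive and 1 negative (52.7% of all genes were positive). Gzma, the largest part of that sum, was the only tested NK gene above the shControl range (15.7% of all genes were). It stood at 30.34, 18.07 and 20.69 TPM in shST3GAL3 1, 2 and 3, against 9.47, 8.07 and 13.66 TPM in shControl 1, 2 and 3. The other 4 tested NK genes overlapped between groups. Dendritic cell markers were positive for 6 of 6 (52.7% of all genes were), of which Zbtb46 (0.10) was negative under 1 other scaling (-0.029). Dendritic cell markers summed to 48.4 to 67.5 TPM in shST3GAL3 and 33.2 to 43.9 TPM in shControl tumours. Without shST3GAL3 1, 5 of them were tested, 4 positive and 1 negative, and the median log2 fold change was 0.27, against 0.47 with it. The part of any of these cell types in the receptor values was not tested.

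Downstream of the activating receptors, 18 kinase, adaptor and effector genes were tested. Of these 16 were positive and 2 negative (52.7% of all genes were positive), and the median of the list was 0.50 on the log2 scale. Above the shControl range lay 13 (15.7% of all genes did), and 0 passed in either direction in limma. By unadjusted limma p under 0.05, 13 were higher and 0 lower, where 9.19% of all genes tested were higher. Rac2, a GTPase gene of blood cells needed for the oxidative burst, stood at 123.8, 76.99 and 45.78 TPM in shST3GAL3 1, 2 and 3, against 31.47, 30.65 and 34.47 TPM in shControl 1, 2 and 3, with no overlap (log2 fold change 1.21, SE 0.33). The Src-family kinase gene Fgr (0.43, SE 0.12) and the adaptor gene Lat (0.74, SE 0.22) were also among the genes of smallest p in the list. Syk, the kinase that docks on the gamma chain, stood at 29.18, 17.12 and 14.29 TPM in shST3GAL3 1, 2 and 3, against 11.95, 12.67 and 11.32 TPM in shControl 1, 2 and 3. The exceptions in sign were Vav3 (-0.25, SE 0.19) and Lat2 (-0.028, SE 0.13), and both overlapped between groups. Without shST3GAL3 1 the median of the 18 genes was 0.33, and 13 lay above the shControl range, where 21.1% of all genes did. That count could not fall by leaving out a shST3GAL3 tumour, so it is no check.

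The 9 inhibitory signalling genes were all positive, apart from Csk under other scalings, with a median of 0.29 (52.7% of all genes were positive). Of them 3 lay above the shControl range (15.7% of all genes did), 0 passed in limma and 3 were higher at an unadjusted p under 0.05 (9.19% of all genes). Inpp5d, the phosphatase gene through which Fcgr2b acts, stood at 43.18, 29.09 and 24.04 TPM in shST3GAL3 1, 2 and 3, against 17.77, 16.31 and 20.63 TPM in shControl 1, 2 and 3, without overlap (log2 fold change 0.75, SE 0.21). The ubiquitin ligase gene Cblb (0.50, SE 0.16) and the adaptor gene Dok3 (0.73, SE 0.35) were the other two above the range, whereas Csk (0.0082, SE 0.08) and Ptpn11 (0.077, SE 0.08), which are broadly expressed, stood close to 0. Csk turned negative under all 3 other scalings of the libraries (-0.039 to -0.011), and without shST3GAL3 1 the list had 8 positive genes, 1 negative gene and a median of 0.17. The activating and inhibitory lists were not tested against each other.

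The phagocyte oxidase genes, which make the superoxide released after Fc receptor engagement, were positive for 5 of 5 (52.7% of all genes were). Their median log2 fold change was 0.48. Of them 3 lay above the shControl range (15.7% of all genes), 0 passed in limma and 3 were higher at an unadjusted p under 0.05 (9.19% of all genes). The median was 0.30 without shST3GAL3 1. Cyba stood at 258.9 ± 64.8 TPM in shST3GAL3 and 156.6 ± 12.6 TPM in shControl tumours, and Cybb at 44.2 ± 9.59 TPM in shST3GAL3 and 30.9 ± 0.937 TPM in shControl tumours (SD, n = 3 each). Of 5 ITAM-bearing or related adaptor genes all were positive (52.7% of all genes were). Cd247 and Tyrobp lay above the range (15.7% of all genes did), and the sum of the list overlapped between groups. Of 10 other immunoglobulin receptor genes 5 were tested and all 5 were positive (52.7% of all genes were), with 1 above the range (15.7% of all genes). Trim21, a cytosolic antibody receptor, lay above the range (17.6 ± 1.16 TPM in shST3GAL3 and 13 ± 1.40 TPM in shControl tumours, log2 fold change 0.42, SE 0.11). Fcrls, known from microglia and some macrophages in the mouse, stood at 41.49 TPM in shST3GAL3 1 and between 7.47 and 10.55 TPM in the other 5 tumours. Fcamr was listed at 0 in all 6, and Pigr did not exceed 0.02 TPM.

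**Figure D4:**
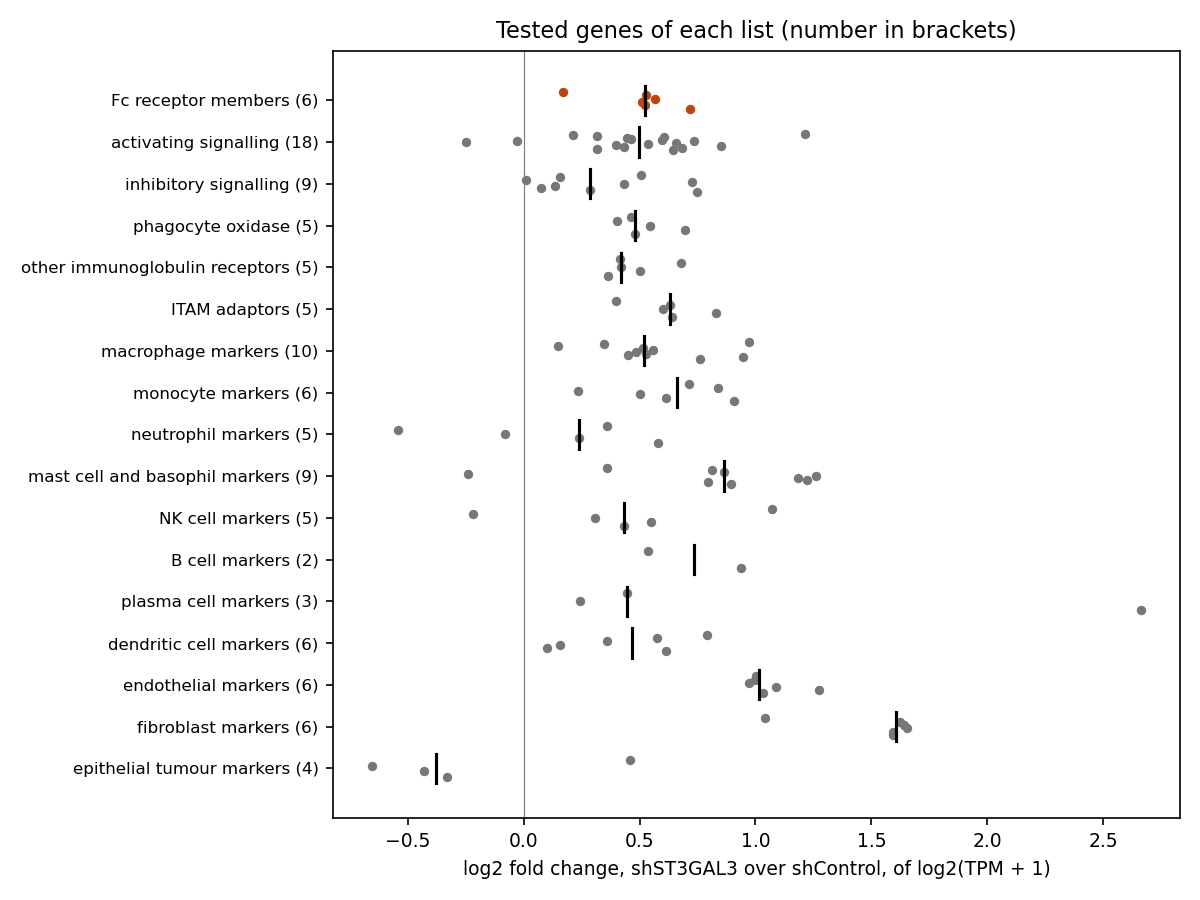
Log2 fold change of shST3GAL3 over shControl for each tested gene of the fixed lists, with the Fc receptor genes in orange and the median of each list as a black bar. The lists of antibody constant genes and FcRn partner genes are not shown. The Fc receptor median is 0.52, near those of macrophage markers (0.52), activating signalling (0.50), phagocyte oxidase (0.48) and dendritic cell markers (0.47). The fibroblast median is 1.61 and the epithelial median is -0.38 (0.86 and -0.16 without shST3GAL3 1).

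The antibody genes that encode the ligands of these receptors were dominated by 1 tumour. Ighg1 stood at 2957.1, 126.8 and 21.5 TPM in shST3GAL3 1, 2 and 3, against 0.68, 22.47 and 1.65 TPM in shControl 1, 2 and 3, with shControl 2 above shST3GAL3 3. Ighg2c, encoding an isotype that Fcgr1 and Fcgr4 products bind, was listed at 37.87, 5.49 and 0.34 TPM in shST3GAL3 1, 2 and 3, against 0, 0.26 and 0 TPM in shControl 1, 2 and 3. Ighg2c was too low to be tested. The other IgG genes Ighg2b and Ighg3 overlapped between groups. Ighg2b stood at 81.78, 25.59 and 0.74 TPM in shST3GAL3 1, 2 and 3, against 7.8, 0.37 and 0.07 TPM in shControl 1, 2 and 3. Ighe, encoding the IgE heavy chain, was listed at 7.09 and 0.19 TPM in shST3GAL3 1 and 2 and at 0 in the other 4 tumours.

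Genes with the most similar profiles over the 6 tumours were found by the distance between centred log2(TPM + 1) values. For Fcer1g, among 14206 other genes, the closest were Il2rg (distance 0.09), Lcp2 (0.10), Spi1 (0.10), C1qb (0.11) and Aoah (0.11). Spi1, which encodes PU.1, stood at 104.08, 73.78 and 61.64 TPM in shST3GAL3 1, 2 and 3, against 59.11, 56.16 and 49.62 TPM in shControl 1, 2 and 3. Among the Fc receptor genes, Fcgr3 came 20th in likeness to Fcer1g, Fcgr2b 218th, Fcgr1 439th, Fcgr4 965th and Fcgrt 1424th. For Fcgr2b the closest were Snx7 (0.12), Tacc1 (0.12), Mtap (0.12), Cd244a (0.13) and Tmcc3 (0.14), and Fcgr4 came 2110th. These are descriptions over 6 tumours, in which many genes share a profile.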

How the data were processed

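Gene expression was taken from the deposited TPM values of 6 tumours, grouped by sample titles. Per the submitters' processing notes, the authors used fastp, HISAT and RSEM with the build GRCm39; their versions, the annotation release and the strandedness were not given in the sources used here. The deposited values were taken as TPM because each library holds fractional values with a total of 999999 to 1000001. TPM keeps no read number, so depth is unknown.

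Genes with at least 1 TPM in 3 or more libraries (14207) were fitted on log2(TPM + 1) with limma 3.58.1 in R 4.3.3, a mean-variance trend and group alone in the model. P-values were adjusted over all genes tested by Benjamini-Hochberg, with a threshold of 0.05. Fold changes on this scale understate the change of low genes. The procedure was tested on simulated data. The members and lists were chosen with earlier results of these data known. The genes named were the 9 members, St3gal3, up to 4 genes of the smallest p per list, markers listed at 0, antibody constant genes, Tyrobp, B2m and the 5 nearest profiles; others named in the text were chosen after their values were seen. Some genes of the lists, counted in the list totals, are not reported here by name. Promoters came from RefSeq (GRCm38.p6) and transcripts, compared with blastn 2.17.0, from GENCODE M21 (GRCm38), another build than that of the files.

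Alternatives were another pseudocount, no filter and a stricter filter, median-ratio and quantile scaling, rescaling without mitochondrial, ribosomal protein and immunoglobulin genes, the replicate number as a block, library weights and leaving out each library. List counts, medians and overlap without shST3GAL3 1 were an alternative chosen after seeing the data. In it, a tested gene above the shControl range could not return to overlap.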

Additional observations from a re-analysis of the deposited data

How the results depend on the processing

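Over all tested genes, the single call became 2 with a pseudocount of 0.1, 0 when 1 TPM was required in all 6 libraries and 8 with library weights, and it stayed 1 with no filter, both scalings, the removal of abundant gene classes and the replicate block. Leaving out 1 library gave 0 to 2 calls. The Fc receptor genes did not pass in any of these fits: the lowest adjusted limma p was 0.138, for Fcgr1 and Fcgr4, each with library weights. Directions held for Fcgr1, Fcgr2b, Fcgr3, Fcgr4 and Fcer1g in all 14 alternatives, with log2 fold changes down to 0.34 for Fcgr2b, and to between 0.21 and 0.76 for that gene when 1 library was left out. Fcgrt reversed to -0.020 without shST3GAL3 1 and ranged to 0.26 without shST3GAL3 3; the cause was not tested. The log2 difference of activating over inhibitory receptor, 0.030, was 0.22 for Fcgr1 alone over Fcgr2b. It was -0.05 to 0.17 when 1 library was left out, highest without shST3GAL3 1. Same-numbered tumours did not deviate together (correlations 0.014, -0.08 and 0.04), so the numbers were not taken as pairs. With the replicate block the log2 fold change of Fcgr4 was 0.57 and the ratio difference 0.030, as without it by construction, and the count of calls stayed at 1. The median over all tested genes, 0.013 as deposited, lay between -0.046 and -0.0027 under the other scalings. TPM gives no read number, so what depth limits for Ms4a2 and Fcer2a is unknown.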

Other observations

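Mcpt8, a protease gene known from basophils in the mouse, stood at 31.35, 48.64 and 46.07 TPM in shST3GAL3 1, 2 and 3, against 49.68, 49.6 and 47.36 TPM in shControl 1, 2 and 3. That level is far above Fcer1a (0.38 to 2.79 TPM), the IgE receptor chain that basophils carry, and Prss34, another basophil protease gene, did not exceed 0.16 TPM. Mcpt8 was also the single negative gene in the mast cell and basophil list (log2 fold change -0.24, SE 0.16).

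The plasma cell genes Jchain and Mzb1 were, like Ighg1, high in shST3GAL3 1 and within or below the shControl range in shST3GAL3 3. Jchain stood at 84.81, 6.5 and 0.91 TPM in shST3GAL3 1, 2 and 3, against 0.77, 1.48 and 0.1 TPM in shControl 1, 2 and 3. Mzb1 stood at 53.7, 7.08 and 0.18 TPM in shST3GAL3 1, 2 and 3, against 0.56, 0.21 and 0.24 TPM in shControl 1, 2 and 3.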
